A study of Mus musculus with 17 samples.

Results

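Expression of 10 genes for Fc receptors and myeloid C-type lectins was examined in whole lungs of mice with and without NOS2 after a challenge with endotoxin (LPS). The members are the IgG receptors Fcgr1, Fcgr2b, Fcgr3 and Fcgr4, and Fcer1g, the signalling chain that the activating ones share. The others are the lectin receptors Clec4d, Clec4e, Clec4n, Clec7a and Clec5a. The members were chosen by name, and all 10 were measured, through 15 probe sets, among 12393 genes that had a probe set naming 1 gene. Whole-lung RNA of 17 male mice was hybridised to Affymetrix MOE430A arrays, with an array for each mouse. Wild-type mice (C57BL/6J) were studied 22 h after intravenous saline (n = 4) and 7 h (n = 3) or 22 h (n = 3) after intravenous LPS from Escherichia coli O111:B4 at 20 mg/kg. Mice that carry a congenital NOS2 deficiency were studied 22 h after saline (n = 1) and 7 h (n = 3) or 22 h (n = 3) after the same LPS dose. No saline group was taken at 7 h, so the responses at both times were measured against saline mice killed at 22 h, and the ages of the mice were not given in the sources used here. In the NOS2-/- mice the saline level rests on 1 mouse, which was assumed to vary like the other groups.

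Fc gamma receptors bind the constant part of IgG and let myeloid cells engulf, kill or respond to antibody-coated targets. The activating receptors Fcgr1, Fcgr3 and Fcgr4 signal through the FcR gamma chain encoded by Fcer1g, whose tyrosine motif (ITAM) recruits the kinase Syk, whereas Fcgr2b carries an inhibitory motif (ITIM) of its own. Clec4d (MCL), Clec4e (Mincle) and Clec4n (Dectin-2) are lectin receptors that signal through the same gamma chain, Clec7a (Dectin-1) binds fungal beta-glucan and recruits Syk through its own tail, and Clec5a (MDL-1) couples to the adaptor DAP12. In the lung these receptors are found mainly on neutrophils, monocytes, macrophages and dendritic cells, and Fcgr2b also on B cells and endothelium.

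The members lie on 3 chromosomes in the RefSeq annotation of GRCm38.p6. Fcgr2b (chr1:170960558-170976071), Fcgr4 (chr1:171018926-171029761), Fcgr3 (chr1:171051169-171065915) and Fcer1g (chr1:171229572-171234349) are neighbours on chromosome 1, and Fcgr1 (chr3:96282909-96293969) is on chromosome 3. On chromosome 6 lie Clec5a (chr6:40574898-40585805), Clec4n (chr6:123229843-123247024), Clec4d (chr6:123262107-123275268), Clec4e (chr6:123281789-123289871) and Clec7a (chr6:129461591-129472785). RefSeq promoters were matched for 9 of the 10 members, all but Clec4n. The 250 bases before the start site are printed below for 4 members, of which Fcgr1, Fcgr4 and Clec4e rose after LPS and Clec7a fell. They are chr3:96293970-96294219 (minus strand) for Fcgr1, chr1:171018676-171018925 (plus strand) for Fcgr4, chr6:123289872-123290121 (minus strand) for Clec4e and chr6:129472780-129473029 (minus strand) for Clec7a, each 5′ to 3′. Capitals mark the letters GAGGAA (the core bound by ETS factors such as PU.1), TTGCNNAA (C/EBP type) and TTCNNNGAA (STAT type) on either strand, and no match overlapped another.
Fcgr1: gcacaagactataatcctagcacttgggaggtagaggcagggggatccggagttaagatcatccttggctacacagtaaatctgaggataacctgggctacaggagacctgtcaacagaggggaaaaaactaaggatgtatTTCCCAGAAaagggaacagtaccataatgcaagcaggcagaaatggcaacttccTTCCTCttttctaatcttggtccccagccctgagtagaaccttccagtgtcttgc
Fcgr4: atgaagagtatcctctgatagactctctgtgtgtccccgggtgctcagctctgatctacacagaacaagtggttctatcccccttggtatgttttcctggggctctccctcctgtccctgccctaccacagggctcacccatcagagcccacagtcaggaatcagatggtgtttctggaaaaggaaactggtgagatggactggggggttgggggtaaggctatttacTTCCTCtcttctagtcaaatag
Clec4e: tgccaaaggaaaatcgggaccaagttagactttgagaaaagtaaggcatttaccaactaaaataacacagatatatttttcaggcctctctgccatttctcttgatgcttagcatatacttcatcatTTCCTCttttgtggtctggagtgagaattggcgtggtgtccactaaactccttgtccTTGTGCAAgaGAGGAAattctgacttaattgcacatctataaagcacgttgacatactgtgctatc
Clec7a: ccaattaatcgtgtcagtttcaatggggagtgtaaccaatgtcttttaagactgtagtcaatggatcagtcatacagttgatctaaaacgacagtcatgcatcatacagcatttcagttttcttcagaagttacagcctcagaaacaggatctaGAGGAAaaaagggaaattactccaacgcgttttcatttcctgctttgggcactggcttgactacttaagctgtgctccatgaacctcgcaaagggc

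GAGGAA was found before the start site of 7 of the 9 members (Fcgr1, Fcgr3, Fcgr4, Clec4d, Clec4e, Clec7a and Clec5a), against 23.3% of all 32851 promoters of the same length. It began 22 bases before the start of Fcgr4, 55 before Fcgr1, 96 before Clec7a, and 123 and 56 before Clec4e. TTGCNNAA was in 2 members (Fcgr3 and Clec4e, where it began 66 bases before the start), against 9.56% of promoters, and TTCNNNGAA in 1 (Fcgr1, 109 bases before the start), against 7.02%. Fcgr2b and Fcer1g held none of these letters in this window. A match describes letters only and was not tied to any change reported here.

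Expression is given as the log2 value that the authors deposited for each probe set, so a difference of 1 is a 2-fold change, and levels of different genes are not compared. Where several probe sets read a gene, the set whose average signal was highest stands for it. Differences come from 1 limma fit of all arrays, and a gene is called changed at an adjusted p under 0.05 over 22626 probe sets. The Nos2 probe set read 8.29 in the NOS2-/- saline mouse and 8.85 to 9.25 in NOS2-/- mice after LPS, against 7.75 to 8.47 in wild-type saline and 8.19 to 9.06 in wild-type LPS mice. Since its position relative to the deleted part was not given, it checks no label. A pair of arrays stood apart. The second wild-type array at 22 h after LPS correlated with its group at 0.949 to 0.955, where every other array with a group mate reached at least 0.991 with one. The NOS2-/- saline array had marker levels 2.18 (skeletal muscle) and 2.21 (squamous epithelium) above the median array on the log2 scale, where all other arrays lay between -0.16 and 0.49.

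**Figure D1:**
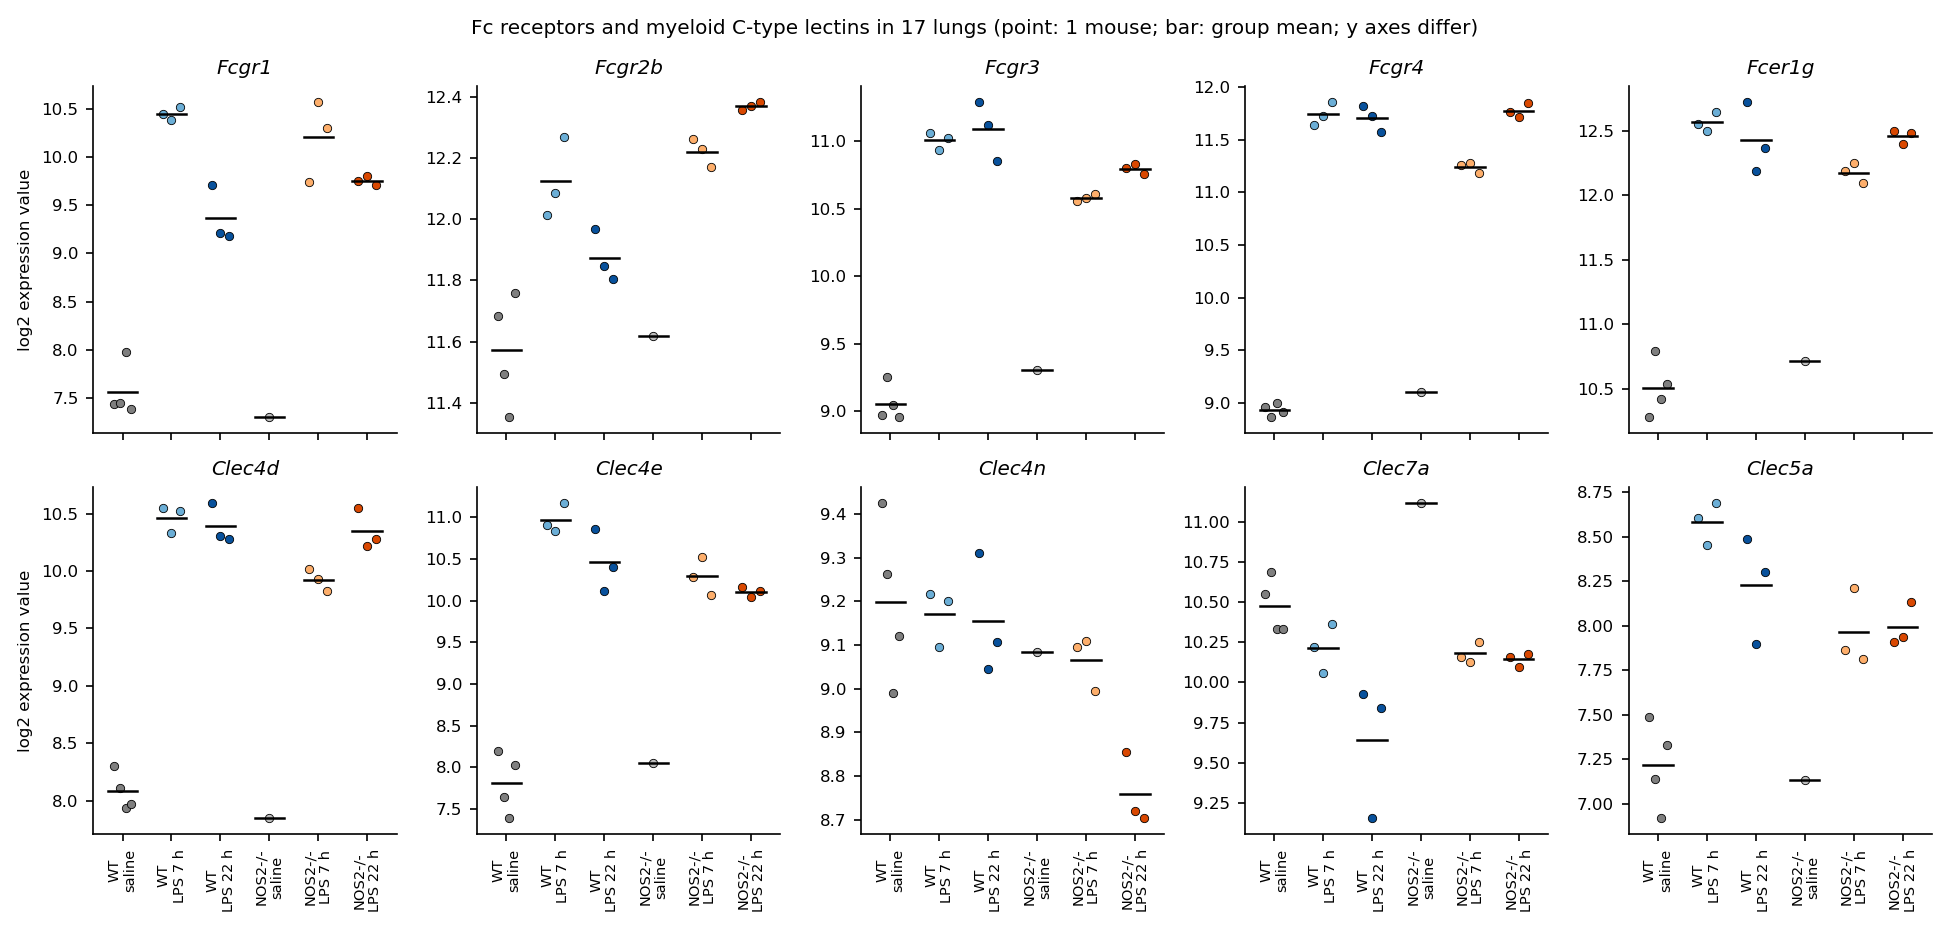
Log2 expression value (y axis, own scale for each gene) of the 10 members in each of 17 mice, by group on the x axis; points are mice and bars are group means. Fcgr1, Fcgr3, Fcgr4, Fcer1g, Clec4d, Clec4e and Clec5a lay higher in all 12 LPS mice than in all 5 saline mice, and Fcgr2b did so by a smaller step.

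LPS challenge raised 8 of the 10 members in wild-type lungs at both times. At 22 h these were Fcer1g, Fcgr1, Fcgr2b, Fcgr3, Fcgr4, Clec4d, Clec4e and Clec5a, whereas Clec7a fell and Clec4n was not called. Among all probe sets, 12.8% rose and 20.0% fell at 22 h. At 7 h the same 8 rose, none fell, and Clec7a and Clec4n were not called, against 14.4% of probe sets that rose and 17.9% that fell. The median change over the 10 members was 1.86 at 22 h and 2.0 at 7 h, beside medians of -0.02 and -0.07 over all 12393 genes. In these bulk lungs, fewer cells of a type and less RNA per cell cannot be told apart, and the same holds for more of either.

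Fcer1g, the signalling chain of the activating receptors, read 10.28, 10.79, 10.42 and 10.53 in wild-type saline mice, 12.55, 12.50 and 12.65 at 7 h after LPS, and 12.73, 12.19 and 12.37 at 22 h. The groups did not overlap, and Fcer1g was 4.17-fold higher at 7 h (log2 difference 2.06 ± 0.12, SE, limma adjusted p = 3.02e-09) and 3.79-fold higher at 22 h (1.92 ± 0.12, adjusted p = 8.34e-09). Non-overlap of this kind, in the upward direction, was found for 20.4% of probe sets at 7 h and 11.8% at 22 h.

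Of the activating IgG receptors, Fcgr4, which binds IgG2a and IgG2b in mice, read 8.97, 8.87, 9.0 and 8.91 after saline. It was 11.64, 11.73 and 11.86 at 7 h and 11.83, 11.73 and 11.58 at 22 h after LPS. The saline mice lay close together and far below every LPS mouse. Its rise was 7.01-fold at 7 h (2.81 ± 0.07, adjusted p = 7.40e-13) and 6.85-fold at 22 h (2.78 ± 0.07, adjusted p = 1.14e-12). Fcgr3, the low-affinity activating receptor, was 8.97, 9.25, 9.04 and 8.96 in saline mice, 11.06, 10.93 and 11.02 at 7 h and 11.29, 11.12 and 10.85 at 22 h. The LPS groups overlapped each other but not the saline group, with rises of 3.86-fold at 7 h (1.95 ± 0.09, adjusted p = 2.99e-10) and 4.08-fold at 22 h (2.03 ± 0.09, adjusted p = 2.51e-10). Fcgr1, the high-affinity receptor that binds single IgG molecules, read 7.44, 7.45, 7.97 and 7.39 after saline, 10.45, 10.38 and 10.52 at 7 h and 9.71, 9.21 and 9.18 at 22 h. All mice at 22 h lay below all mice at 7 h and above all saline mice. The rise of Fcgr1 was 7.39-fold at 7 h (2.88 ± 0.18, adjusted p = 5.92e-09) and 3.49-fold at 22 h (1.80 ± 0.18, adjusted p = 1.25e-06).

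Fcgr2b, the inhibitory IgG receptor, changed least among the called members by its representative probe set. Its values were 11.68, 11.49, 11.35 and 11.76 after saline, 12.02, 12.09 and 12.27 at 7 h and 11.97, 11.85 and 11.81 at 22 h. The saline and LPS groups did not overlap, but the step at 22 h was 1.23-fold (0.30 ± 0.09, adjusted p = 0.0183) and at 7 h 1.47-fold (0.55 ± 0.09, adjusted p = 2.02e-04). The call at 22 h was lost when wild-type saline mouse 2 or 3 or the first wild-type LPS mouse at 22 h was left out (adjusted p between 0.0517 and 0.0738), and with the compared groups fitted alone (adjusted p = 0.117). The other 3 probe sets of Fcgr2b disagreed in size. Probe set 1435477_s_at read 9.42, 9.67, 9.72 and 9.48 after saline and 11.92, 11.65 and 11.38 at 22 h after LPS, a log2 difference of 2.08. For 1455332_x_at and 1451941_a_at the differences at 22 h were 1.57 and 1.81, and for the 3 sets they were 2.46, 1.92 and 2.38 at 7 h. All 4 rose at both times, so the direction does not rest on the choice of probe set, while the size does: as a mean over the 4 sets the difference at 22 h was 1.44. Suffixes _s_at and _x_at are the manufacturer's marks for sets whose probes can match more than 1 transcript, and which transcripts each set reads was not tested.

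**Figure D2:**
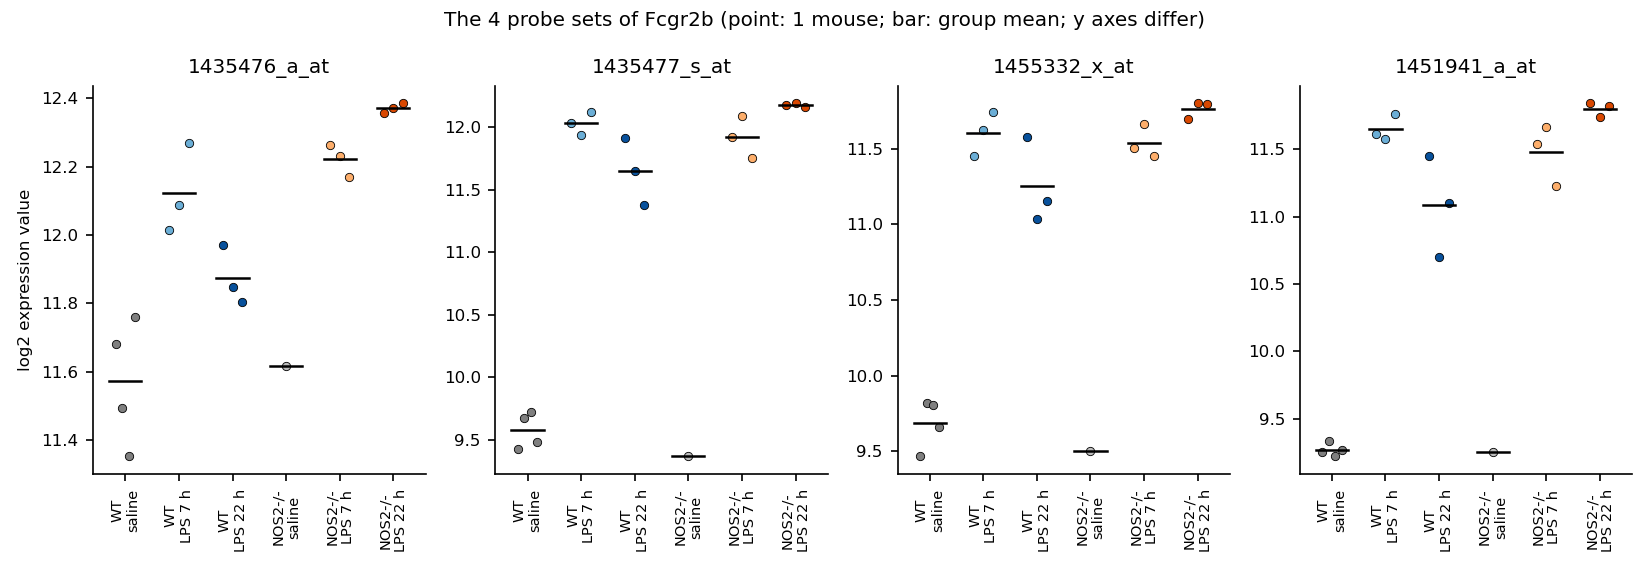
Log2 expression value (y axis, own scale) of Fcgr2b on its 4 probe sets in the 17 mice, by group on the x axis; points are mice and bars are group means. The representative set 1435476_a_at starts at 11.57 in wild-type saline mice and moves by under 1, while the other sets start between 9.27 and 9.69 and rise by 1.57 to 2.81 in the means at either time and genotype.

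Among the lectin receptors that use the gamma chain, Clec4e, which recognises mycobacterial glycolipid and products of dying cells, showed the largest rise of any member in wild-type mice at 7 h by its representative probe set. It read 8.20, 7.65, 7.39 and 8.03 after saline, 10.91, 10.83 and 11.17 at 7 h and 10.86, 10.12 and 10.40 at 22 h. The rise was 8.90-fold at 7 h (3.15 ± 0.19, adjusted p = 3.84e-09) and 6.23-fold at 22 h (2.64 ± 0.19, adjusted p = 3.52e-08), without overlap. Its other probe set, 1420331_at, rose by 1.31 and 1.12 on the log2 scale. Clec4d, the partner of Clec4e in the same gene cluster, read 8.30, 8.11, 7.93 and 7.97 after saline, 10.55, 10.33 and 10.52 at 7 h and 10.59, 10.31 and 10.28 at 22 h. It was 5.22-fold higher at 7 h (2.38 ± 0.11, adjusted p = 1.93e-10) and 4.97-fold higher at 22 h (2.31 ± 0.11, adjusted p = 3.47e-10), again without overlap.

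Clec4n, a receptor for fungal mannan that lies beside Clec4d and Clec4e, did not share this rise. Its values were 9.43, 9.26, 8.99 and 9.12 after saline, 9.22, 9.10 and 9.20 at 7 h and 9.31, 9.04 and 9.11 at 22 h. All 3 groups overlapped, and the differences were -0.03 at 7 h (95% confidence interval -0.23 to 0.18, adjusted p = 0.865) and -0.05 at 22 h (-0.25 to 0.16, adjusted p = 0.755). Its other probe set gave 0.24 and 0.03, neither called. Clec5a rose from between 6.92 and 7.49 in saline mice to between 8.45 and 8.69 at 7 h and between 7.90 and 8.49 at 22 h, or 2.57-fold (1.36 ± 0.15, adjusted p = 3.32e-06) and 2.01-fold (1.01 ± 0.15, adjusted p = 7.27e-05), with no overlap between saline and LPS mice.

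Clec7a was the member that fell. It read 10.55, 10.69, 10.33 and 10.33 in wild-type saline mice, 10.22, 10.06 and 10.37 at 7 h and 9.93, 9.15 and 9.84 at 22 h. The 7 h group overlapped the saline group, and the difference of -0.26 ± 0.15 was not called (adjusted p = 0.222). At 22 h all LPS mice lay below all saline mice, a downward separation found for 19.3% of probe sets, and Clec7a fell by 0.84 ± 0.15 on the log2 scale (adjusted p = 4.06e-04). The lowest value, 9.15, came from the array that stood apart, and without it the fall at 22 h was 0.59 and still called, while the same difference of -0.26 at 7 h passed the test (adjusted p = 0.0199). All 8 rises were called without that array too, at both times, beside 41.2% of probe sets called in either direction at 22 h and 46.1% at 7 h in that fit (32.8% and 32.3% with it).

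**Figure D3:**
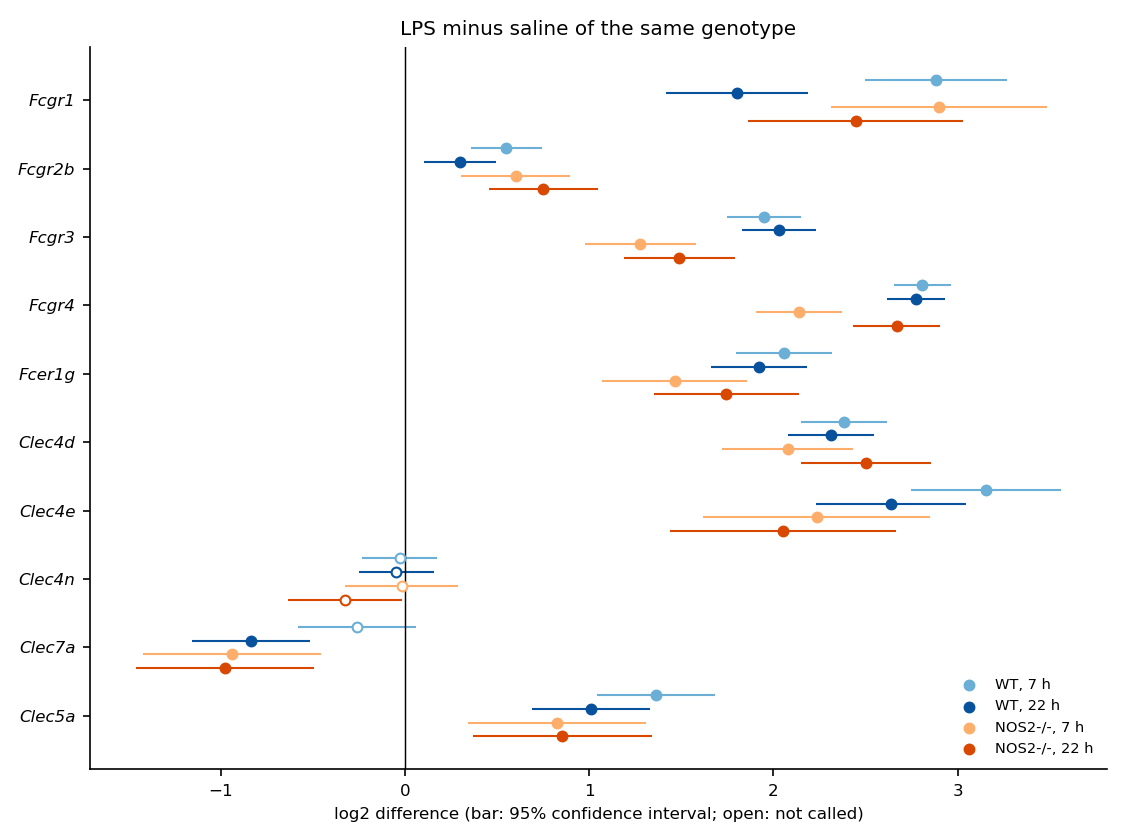
Log2 difference between LPS and saline mice of the same genotype (x axis) for the 10 members (y axis) at 7 h and 22 h, with 95% confidence intervals from the limma fit; filled points were called. Clec4n was called nowhere (-0.05 to -0.02, and -0.32 in NOS2-/- mice at 22 h) and Clec7a lies below 0, while the other 8 members lie above 0 in both genotypes and at both times.

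In NOS2-/- mice the same 8 members rose at both times, and Clec7a fell at both. Of all probe sets, 11.6% rose and 16.0% fell at 22 h, and 8.78% rose and 13.7% fell at 7 h. Against a single saline mouse, separation of the groups says little: at 22 h it was found upward for 47.2% and downward for 39.4% of probe sets, and at 7 h for 44.0% and 36.5%. Fcer1g read 10.71 in the saline mouse, 12.19, 12.25 and 12.09 at 7 h and 12.50, 12.40 and 12.48 at 22 h, a rise of 2.76-fold (1.46 ± 0.18, adjusted p = 2.74e-05) and 3.35-fold (1.75 ± 0.18, adjusted p = 4.12e-06). Fcgr4 read 9.10 after saline, 11.26, 11.28 and 11.19 at 7 h and 11.76, 11.71 and 11.85 at 22 h, so that its rise was 4.41-fold at 7 h and 6.37-fold at 22 h. All mice at 22 h lay above all mice at 7 h. Fcgr3 was 9.30 after saline, 10.56, 10.58 and 10.61 at 7 h and 10.80, 10.83 and 10.75 at 22 h, or 2.42-fold and 2.81-fold higher. Fcgr1 read 7.30 after saline, 9.74, 10.57 and 10.30 at 7 h and 9.75, 9.80 and 9.71 at 22 h, or 7.46-fold and 5.46-fold higher, with LPS groups that overlapped.

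Clec4e in NOS2-/- mice read 8.06 after saline, 10.29, 10.52 and 10.06 at 7 h and 10.16, 10.04 and 10.12 at 22 h, or 4.71-fold and 4.14-fold higher. Clec4d read 7.85, then 10.01, 9.93 and 9.83 at 7 h and 10.54, 10.22 and 10.28 at 22 h, or 4.22-fold and 5.67-fold higher. Both were far above the single saline value in all 6 LPS mice. The inhibitory Fcgr2b read 11.62 after saline, 12.26, 12.23 and 12.17 at 7 h and 12.36, 12.37 and 12.38 at 22 h, a rise of 0.60 ± 0.14 and 0.75 ± 0.14 on the log2 scale, and of 2.04 to 2.81 on its other probe sets. Clec5a rose from 7.13 to between 7.81 and 8.21 at 7 h and between 7.91 and 8.13 at 22 h (0.83 ± 0.23 and 0.86 ± 0.23). The adjusted p of these 8 rises was at most 0.0151 at 7 h and 0.0100 at 22 h. Set against the 4 wild-type saline mice in place of the lone NOS2-/- saline mouse, all 8 were still called.

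The fall of Clec7a in NOS2-/- mice rested on that saline mouse. Clec7a read 11.12 in it, above all 4 wild-type saline mice, and 10.16, 10.13 and 10.25 at 7 h and 10.16, 10.10 and 10.18 at 22 h after LPS. The differences were -0.94 ± 0.23 (adjusted p = 6.75e-03) and -0.97 ± 0.23 (adjusted p = 4.22e-03). Against wild-type saline they were -0.29 (adjusted p = 0.142) and -0.33 (adjusted p = 0.0940), so neither was called. The saline array was the one with high skeletal muscle and squamous markers, whose part in its Clec7a value was not tested. Clec4n read 9.08 after saline, 9.10, 9.11 and 8.99 at 7 h and 8.86, 8.72 and 8.70 at 22 h. Its difference at 22 h was -0.32 ± 0.14 (adjusted p = 0.117), and -0.44 against wild-type saline, which was called (adjusted p = 1.50e-03).

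By the fold rule of the study's methods (a ratio to saline of 3 or more, or of 0.3 or below), Fcgr1, Fcgr3, Fcgr4, Fcer1g, Clec4d and Clec4e counted as up at 22 h in wild-type mice, where 1.27% of probe sets did so. The same members but Fcgr3, at 2.81-fold, counted as up in NOS2-/- mice, where the share was 1.76%. No member reached the lower limit in either genotype, which 0.707% and 0.804% of probe sets did. These counts use the representative probe sets. In wild-type mice Fcgr2b passed the upper limit on 1435477_s_at (4.22-fold) and 1451941_a_at (3.52-fold), but not on 1455332_x_at (2.96-fold). In NOS2-/- mice these sets gave 7.02-fold, 5.84-fold and 4.79-fold, so all passed. The other probe set of Clec4e stayed below the limit in both genotypes (2.17-fold and 2.76-fold).

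After LPS at 7 h, 3 members were lower in NOS2-/- than in wild-type mice and none was higher, against 1.48% and 0.526% of probe sets. The lower members were Fcgr4 (0.706-fold, -0.50 ± 0.08, adjusted p = 9.32e-03), Clec4d (0.688-fold, -0.54 ± 0.12, adjusted p = 0.0367) and Fcgr3 (0.745-fold, -0.43 ± 0.10, adjusted p = 0.0443). In each of them all 3 NOS2-/- mice lay below all 3 wild-type mice. That was so too for Fcer1g (-0.39 ± 0.13, adjusted p = 0.105), Clec4e (-0.68 ± 0.20, adjusted p = 0.0814) and Clec5a (-0.62 ± 0.16, adjusted p = 0.0574), which were not called. Groups separated in this direction for 21.3% of probe sets. For Fcgr1, Fcgr2b, Clec4n and Clec7a the groups overlapped and the differences lay between -0.24 and 0.10.

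The calls at 7 h depended on single arrays, also of groups outside the comparison, through the shared spread. Without the second wild-type LPS array at 22 h, which stood apart, 6 members were called lower, with Fcer1g, Clec4e and Clec5a added at the same differences. In that fit 26.9% of all probe sets were called, 14.1% lower and 12.8% higher. The number of called probe sets was 454 with all arrays, 6092 without that array and 23 without the first wild-type array at 7 h. Without the third NOS2-/- array at 7 h none was called, and Fcgr4 alone was called without any 1 wild-type array at 7 h, the second NOS2-/- array at 7 h, or the second or the third NOS2-/- array at 22 h. Fcgr3 alone lost its call without the first or the third wild-type saline array or the first NOS2-/- array at 7 h or 22 h, and Clec4d alone without the second wild-type saline array.

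At 22 h after LPS, 2 members were higher and 1 was lower in NOS2-/- than in wild-type mice, against 9.63% and 6.81% of probe sets. Fcgr2b was 1.41-fold higher (0.50 ± 0.10, adjusted p = 2.84e-03), with no overlap between 12.36 to 12.38 in NOS2-/- and 11.81 to 11.97 in wild-type mice. Its other probe sets were higher by 0.53, 0.51 and 0.72, all called. Clec4n was 0.760-fold as high (-0.40 ± 0.10, adjusted p = 0.0152), at 8.70 to 8.86 against 9.04 to 9.31. Its other probe set gave -0.50 (adjusted p = 0.0751), and the call of Clec4n was lost without the first wild-type or the second or the third NOS2-/- array at 22 h. Clec7a was 1.42-fold higher (0.50 ± 0.16, adjusted p = 0.0437), but without the second wild-type array at 22 h the difference was 0.26 and not called (adjusted p = 0.0740), and the call was lost under 15 of 26 alternatives. Without that array 1 member was higher (Fcgr2b) and 2 were lower, Clec4n and Clec5a (-0.40, adjusted p = 0.0470), where 11.2% of probe sets were called higher and 15.4% lower. With all arrays the groups did not overlap for Fcgr2b, Clec4n and Clec7a, an upward separation found for 19.1% and a downward one for 11.3% of probe sets.

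Of the 6 members that separated the genotypes at 7 h, Fcgr3 alone did so at 22 h with all arrays. Fcgr4 differed by 0.06 (95% confidence interval -0.10 to 0.23), Clec4d by -0.04 (-0.29 to 0.21) and Fcer1g by 0.03 (-0.25 to 0.31) at 22 h, with overlapping groups. Fcgr3 was still lower in every NOS2-/- mouse, at 10.75 to 10.83 against 10.85 to 11.29 (-0.29 ± 0.10), without a call (adjusted p = 0.0596), and was called lower under 7 of 26 alternatives. Fcgr1 was 0.39 ± 0.19 higher, Clec4e -0.35 ± 0.20 and Clec5a -0.24 ± 0.16, none of them called with all arrays and all with overlap. For Clec4e and Clec5a the overlap came from the second wild-type array, at 10.12 and 7.90. The other wild-type mice (10.40 and 10.86 for Clec4e, 8.30 and 8.49 for Clec5a) lay above all NOS2-/- mice. Without that array Clec4e was -0.52 and not called (adjusted p = 0.0566), and Clec5a was -0.40 and called (adjusted p = 0.0470). In that fit 15.4% of probe sets were called lower.

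**Figure D4:**
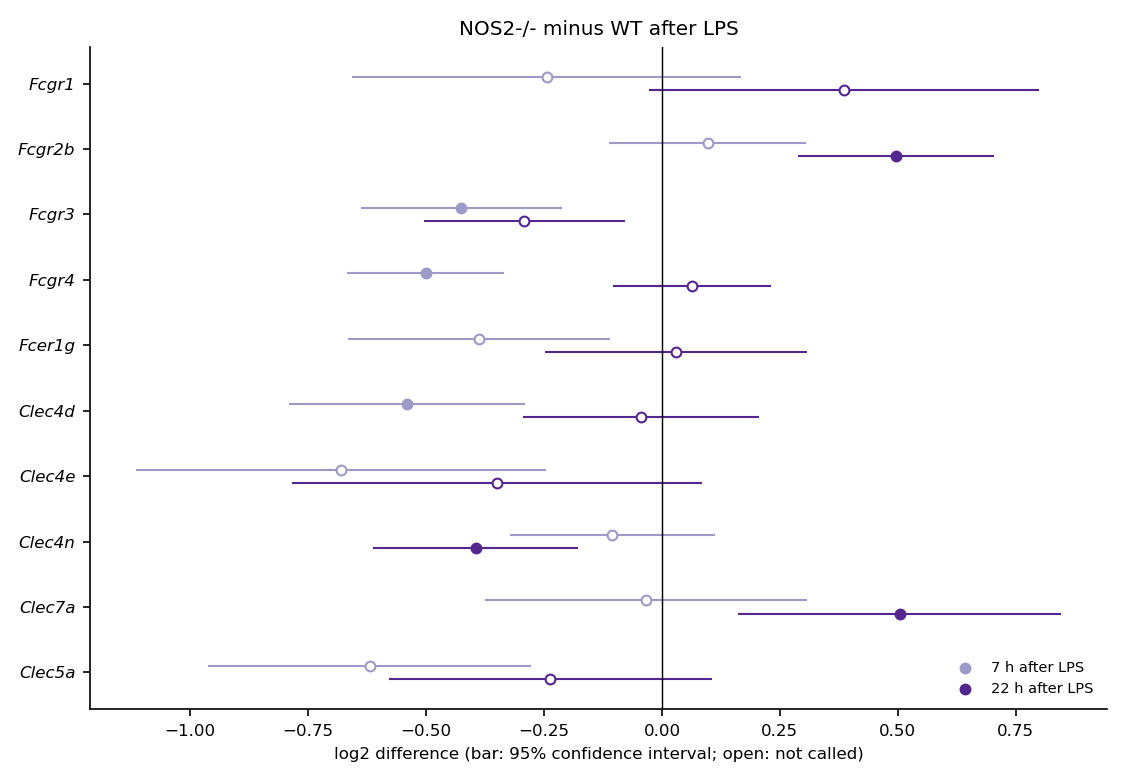
Log2 difference between NOS2-/- and wild-type mice after LPS (x axis) for the 10 members (y axis) at 7 h and 22 h, with 95% confidence intervals from the limma fit; filled points were called. At 7 h Fcgr3, Fcgr4 and Clec4d lie below 0 and are filled, and at 22 h Fcgr2b and Clec7a lie above 0 and Clec4n below it.

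By the representative probe sets, 2 members fell in wild-type mice from 7 h to 22 h after LPS and none rose, against 7.68% and 3.15% of probe sets. Fcgr1 fell to 0.473-fold (-1.08 ± 0.19, adjusted p = 1.97e-03) and Clec7a to 0.671-fold (-0.58 ± 0.16, adjusted p = 0.0312), the latter losing its call without the first or the third wild-type array at 7 h (adjusted p = 0.0872 and 0.131) or with the compared groups fitted alone. Without the second wild-type array at 22 h the change of Clec7a was -0.33 (adjusted p = 0.0378). Both separated the times without overlap, as did Fcgr2b, which was lower at 22 h by 0.25 ± 0.10 without a call (adjusted p = 0.122), and 15.4% of probe sets did so downward. As a mean over its probe sets, Fcgr2b was called lower (limma adjusted p = 0.0157). Its set 1451941_a_at went from 11.65 to 11.08 in the group means. Without the second wild-type array at 22 h that set was called lower (-0.38, limma adjusted p = 0.0289), where 7.73% of probe sets were. In NOS2-/- mice 2 members rose and none fell, against 4.65% and 3.16%. Clec4n was lower at 22 h without a call (-0.31 ± 0.10, adjusted p = 0.0861). Without the second wild-type array at 22 h it was called at the same difference (adjusted p = 0.0261), where 8.12% of probe sets were called lower. Fcgr4 rose 1.44-fold (0.53 ± 0.08, adjusted p = 8.78e-04) and Clec4d 1.34-fold (0.42 ± 0.12, adjusted p = 0.0378). The call of Clec4d was lost without any 1 NOS2-/- LPS array, without the second wild-type saline array or without the third wild-type array at 7 h. Fcgr2b, Fcgr3 and Fcer1g also lay higher in all NOS2-/- mice at 22 h than at 7 h (0.15 ± 0.10, 0.21 ± 0.10 and 0.28 ± 0.13) without passing the test, and 18.8% of probe sets separated upward.

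The change from 7 h to 22 h differed between the genotypes for Fcgr4 alone by the representative probe sets, which is 1 member in the upward direction beside 2.49% of probe sets. Its change was -0.03 ± 0.08 in wild-type and 0.53 ± 0.08 in NOS2-/- mice, a difference of 0.57 ± 0.11 (adjusted p = 0.0146). That call was lost without the third wild-type array at 7 h. The differences of Fcgr1 (0.63 ± 0.27, adjusted p = 0.236), Clec7a (0.54 ± 0.23, adjusted p = 0.223) and Clec4d (0.50 ± 0.17, adjusted p = 0.126) were of similar size with wider errors. Probe set 1451941_a_at of Fcgr2b passed this test too (0.89 ± 0.20, adjusted p = 0.0307), unlike its 3 other sets. For the LPS response at 22 h, limma called 0 of the 10 members as different between genotypes, where 4.70% of probe sets were called, and 2 members (Fcgr2b and Fcgr3) had an unadjusted p under 0.05. Fcgr3 showed -0.54 ± 0.17 (adjusted p = 0.0907) and Fcgr2b 0.45 ± 0.17 (adjusted p = 0.158), both resting on the lone NOS2-/- saline mouse. By the representative probe sets, 1 member, Fcgr3, was called without the second or the third wild-type array at 22 h. For the other sets of Fcgr2b the difference was larger, but not called: 0.74 (1435477_s_at), 0.69 (1455332_x_at) and 0.73 (1451941_a_at). Without the second wild-type array, 1435477_s_at (0.74) and 1451941_a_at (0.54) were called, but not 1455332_x_at (0.58). In that fit 3441 of 22626 probe sets were called. Fcgr2b was also called as a mean over its probe sets and with array weights.

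Signalling partners of these receptors rose beside them. Of 22 measured genes for ITAM signalling, 14 rose and 1 fell in wild-type mice at 22 h (median change 0.46), beside 13.1% of all genes that rose and 22.6% that fell. The largest changes were in Lcp2 (SLP-76, 1.95), Sla (1.57), Fgr (a Src family kinase, 1.29), Rac2 (1.2), Syk (0.93) and Sh3bp2 (0.87). All 6 rose at 7 h too, and in NOS2-/- mice at both times. At 7 h, 5 of the 22 were lower in NOS2-/- than in wild-type mice and none was higher (1.52% and 0.67% of all genes), among them Lcp2 (-0.68), Rac2 (-0.53), Sla (-0.45) and Sh3bp2 (-0.44). Without the wild-type array that stood apart, 8 of the 22 were called lower and 4 higher, where 14.1% and 12.8% of probe sets were.

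Of 14 receptors with inhibitory ITIM motifs, the class of Fcgr2b, 8 rose and 3 fell in wild-type mice at 22 h (median 0.76). Among all genes, 13.1% rose and 22.6% fell. Cd300lf rose by 2.69, Pirb by 2.09, Cd33 by 1.59, Siglece by 1.24 and Pilra by 1.09, and the endothelial adhesion molecule Pecam1 fell by 1.08. At 22 h, 6 of the 14 were lower in NOS2-/- than in wild-type mice and none was higher, beside 7.84% and 10.2% of all genes. Without the wild-type array that stood apart, 8 of the 14 were called lower and none higher, where 15.4% and 11.2% of probe sets were. Pirb (-1.14), Pilra (-0.73), Siglece (-0.65) and Cd33 (-0.56) were lower there, at the time at which Fcgr2b was higher. Other myeloid receptors that couple to ITAM adaptors numbered 5, of which Trem1 (1.88) and Trem3 (1.73) rose in wild-type mice at 22 h. Trem2 (-0.14), Oscar (0.14) and Cd300ld (-0.17) were not called. Trem1 was lower in NOS2-/- mice at 7 h (-0.77) and higher at 22 h (0.70).

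Other families did not move as one with the members. Of 10 other Fc receptors and IgG-binding proteins, 3 rose and 4 fell in wild-type mice at 22 h (median change -0.03), beside 13.1% of all genes that rose and 22.6% that fell. The epithelial immunoglobulin transporter Pigr rose by 3.17 and the cytosolic IgG receptor Trim21 by 0.63, whereas the neonatal Fc receptor chain Fcgrt fell by 1.28 and the B cell IgE receptor Fcer2a by 0.40. Fcamr rose by 0.56 and Fcrls fell by 0.46. Of 22 other C-type lectins, 4 rose and 7 fell (median change -0.10), beside the same shares of all genes. Clec14a of endothelium fell by 1.24, Mrc2 by 0.96, Cd209a by 0.89, Mgl2 by 0.88 and Colec12 by 0.77, while Clec4a2 rose by 0.81 and was lower in NOS2-/- mice at 22 h (-0.94).

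Markers of myeloid cells changed in the same lungs. Among all genes, 13.1% rose and 22.6% fell in wild-type mice at 22 h, and 14.6% and 20.6% at 7 h. In NOS2-/- mice these shares were 11.7% and 18.3% at 22 h, and 9.39% and 15.6% at 7 h. Of 15 neutrophil markers, 12 rose in wild-type mice at 22 h and 14 at 7 h, and in NOS2-/- mice 14 and 11, with none lower (Ngp 4.63, S100a9 3.91, Fpr2 3.78, Lcn2 3.38, S100a8 3.37 and Mmp8 3.05 at 22 h in wild-type mice). Their mean level per array, relative to the median array, was -1.88 to -1.63 in saline mice and -0.12 to 0.42 in LPS mice, without overlap. At 7 h it was 0.09 to 0.22 in wild-type and -0.12 to 0.15 in NOS2-/- mice, and at 22 h 0.13 to 0.32 and 0.39 to 0.42. The single markers were mixed between genotypes. At 22 h, 4 of the 15 were higher and 3 lower in NOS2-/- mice (10.2% and 7.84% of all genes). At 7 h none was higher and 3 were lower (0.67% and 1.52%). Of 17 monocyte and macrophage markers, 7 rose and 3 fell in wild-type mice at 22 h, with a median change of 0.04. The largest called changes were rises, of Itgam (3.53), Tgfbi (1.28), C1qb (1.01), Ms4a6c (1.00), Mpeg1 (0.92) and Cd68 (0.81). In NOS2-/- mice 3 rose and 5 fell at 22 h, and 2 rose and 4 fell at 7 h. At 22 h, 7 of the 17 were lower in NOS2-/- than in wild-type mice and none was higher, beside 7.84% and 10.2% of all genes. Without the wild-type array that stood apart, 12 of the 17 were called lower and none higher, where 15.4% and 11.2% of probe sets were. The mean level of the 17 markers was -0.22 to -0.10 in saline mice, 0.02 to 0.13 at 7 h and 0.03 to 0.40 at 22 h in wild-type mice, and -0.17 to -0.01 in NOS2-/- mice after LPS. The part of these shifts in the member values was not tested.

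Other cell type lists are given for wild-type mice at 22 h after LPS against saline, where 13.1% of all genes rose and 22.6% fell. Of 9 alveolar macrophage markers 3 rose (Marco by 1.36, Krt79 by 0.37 and Chil3 by 0.26) and 3 fell (Fabp1 by 0.87, Siglecf by 0.81 and Itgax by 0.60). Of 9 dendritic cell markers 3 rose (Ccr7, Ccl22 and Fscn1) and 2 fell (Dpp4 and Cd209a). All 7 called of 9 B cell markers were lower, with Cd79a at -1.52, and Fcgr2b, which B cells carry, rose in the same mice. T and NK cell markers showed 1 rise and 5 falls of 11, mast cell and basophil markers 2 and 2 of 10, endothelial markers 1 and 8 of 10, and alveolar type 2 markers 1 and 6 of 7. Pan-leukocyte genes rose in 6 of 7 and fell in none. Skeletal muscle markers were not called in any of 12, and squamous markers fell in 1 of 10, whereas in the NOS2-/- comparison with its lone saline array 9 of 12 and 7 of 10 were lower. Against that array, 1 of the 7 pan-leukocyte genes rose and none fell at 22 h (11.7% and 18.3% of all genes). At 7 h, 2 rose and 1 fell (9.39% and 15.6%).

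Across the 17 arrays most of the rising members moved closely together. By its representative probe set, Fcgr2b followed them less, with Pearson's r from 0.68 (Clec5a) to 0.81 (Fcgr1). Its other probe sets, which rose more after LPS, were not part of these correlations or of the search for nearest genes. Pearson's r, which here mostly follows the difference between saline and LPS mice, was 0.985 between Fcgr3 and Fcgr4 and 0.990 between Fcgr4 and Clec4d, and it is given as a description with no test. The genes outside the set nearest to each member were Il1r2, Wfdc21 and Hp for Fcgr4 (r = 0.995, 0.995 and 0.991), Cd53, Lrg1 and Wfdc21 for Fcer1g (0.991, 0.991 and 0.989), and Wfdc21, Ccr1 and Hp for Clec4d (0.991, 0.989 and 0.989). Fcgr3 was nearest to Fpr2, Smox and Syk (0.988, 0.986 and 0.985), Clec4e to Cd300lf, Ttc39b and Csf2rb2 (0.988, 0.983 and 0.982), and Clec5a to Gda, Bst1 and Selplg (0.969, 0.963 and 0.954). Fcgr1 was nearest to Acod1, Tap2 and Il1rn (0.985, 0.984 and 0.983), and Fcgr2b to Cish, Zfp598 and Fap (0.973, 0.959 and 0.952). Clec7a was nearest to Itgax, Tiam1 and Ndrg4 (0.957, 0.947 and 0.934) and ran against the rising members (r = -0.65 with Fcgr4). Clec4n, with Socs5, Lrrk2 and Calr (0.898, 0.895 and 0.877), followed neither group closely.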

How the data were processed

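The authors made 1 value per probe set and mouse from Affymetrix MOE430A arrays with the affy package in R, naming it for background correction, normalization and expression values, and deposited it on a log2 scale. No source used here gives the version and options of affy, and no count or depth underlies array values, so the number of mice limits precision. The deposited values were used unscaled. Of 22690 probe sets, 64 controls were left out and 22626 tested. Symbols came from the platform table, updated to GRCm38.p6 by gene ID (20380 probe sets named 1 gene, 691 several and 1555 none). Samples were grouped by their labels. The 10 comparisons were contrasts of group means in 1 limma 3.58.1 fit (R 4.3.3) with default empirical Bayes and Benjamini-Hochberg adjustment. The fit was also run on simulated arrays with known changes and independent normal noise. None of those arrays stood apart, so that run says nothing on how such arrays move calls. Errors are standard errors unless named, and confidence intervals are at 95%. Members, related lists (229 genes, 191 measured) and the naming rule (all members, up to 6 called genes per list with the largest change in wild-type mice at 22 h, lists of 6 or fewer in full, Nos2, and 3 nearest genes per member) were chosen with earlier results of these data known. Correlations and motif searches are descriptions. Alternatives were quantile normalization, median centring, the compared groups alone, a filter at the 40th percentile of mean signal, trended robust priors, array weights, a replicate block, gene means, wild-type saline as control, and each array left out. The fold rule was also run on arithmetic means. Figures were drawn with matplotlib.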

Additional observations from a re-analysis of the deposited data

Results flagged for a closer look

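In wild-type saline mice, Fcgr1 in the third mouse (7.97) lay far from the other 3 (7.39 to 7.45), with a gap to its nearest neighbour of 0.91 of the range of the group. Each of the 12 LPS mice lay above it.

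The change of Fcgr4 from 7 h to 22 h after LPS differed between NOS2-/- and wild-type mice by 0.57 on the log2 scale (adjusted p = 0.0146). It rose in NOS2-/- mice, from 11.24 to 11.77 in the mean, and was 11.75 and 11.71 in wild-type mice.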

How the results depend on the processing

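The LPS responses kept their calls best. Leaving out 1 array at a time gave 8 to 9 called members in wild-type mice at 22 h and at 7 h, and 9 throughout in NOS2-/- mice at both times. The range was 0 to 6 between genotypes at 7 h, 1 to 4 at 22 h, 1 to 3 from 7 h to 22 h in either genotype, 0 to 2 for the difference of those changes and 0 to 1 for the difference of the responses at 22 h. Leaving out the lone NOS2-/- saline array gave no value for the NOS2-/- responses. With the compared groups alone, called members numbered 6 between genotypes at 7 h, 1 at 22 h, 1 for the wild-type change and 5 for the NOS2-/- change from 7 h to 22 h. With array weights they numbered 6 and 6 between genotypes, 6 for the NOS2-/- change, 3 for the difference of changes and 2 for the difference of responses. Quantile normalization left 0 for the difference of changes (Fcgr4 lost), gene means gave 2 there and 1 for the responses, and wild-type saline as control gave 3 for the responses. Without both arrays that stood apart, an alternative chosen after seeing the data, 6 were called between genotypes at 7 h. The difference of the Clec7a response at 22 h, -0.14, turned to 0.50 with wild-type saline as control (adjusted p = 0.0437), which makes it the genotype comparison at 22 h itself and no separate test, and to 0.0052 without the first wild-type LPS array at 22 h. The filter on low signal removed Clec5a. The cause of these shifts was not tested, apart from the smaller samples or gene sets that some alternatives use.

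Over all probe sets, calls between genotypes at 7 h numbered 454, between 23 (without the first wild-type array at 7 h) and 9946 (array weights) under other settings, and 250 with the replicate block. For the other comparisons, array weights or the compared groups alone moved counts by over 1.5 times: 7427 to 4741 for wild-type at 22 h, 7309 to 11222 at 7 h, 6246 to 11961 for NOS2-/- at 22 h, 5095 to 8988 at 7 h, 3720 to 918 and 7349 between genotypes at 22 h, 2451 to 467 and 4542 for the wild-type change, 1766 to 6458 for the NOS2-/- change, 687 to 370 and 3071 for the difference of changes, and 1064 to 465 for the responses (3720 with wild-type saline). Leaving out 1 array at a time gave 4254 to 8627 for NOS2-/- at 7 h, 2323 to 6020 between genotypes at 22 h, 1451 to 4098 and 887 to 4493 for the wild-type and NOS2-/- changes, 243 to 1628 for their difference and 699 to 3441 for the responses. All but 1 of these upper ends were without the second wild-type array at 22 h, and 4098 was without the third.

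Replicate numbers were not treated as pairing the mice. Of 18 same-numbered pairs, 3 had deviations from their group means that correlated over 0.1 (range -0.38 to 0.21). Pairs with different numbers were not compared, so this cannot exclude a pairing. With the number as a replicate block, 9 and 8 members were called in the wild-type responses at 22 h and 7 h, 9 and 9 in NOS2-/- mice, 2 and 2 between genotypes at 7 h and 22 h (Fcgr3 and Clec7a lost), 2 and 2 for the changes in time, 1 for their difference and 0 for the responses.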
